A study of Mus musculus with 8 samples.

Results

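The transcripts described here come from the mitochondrial genome, a small circular DNA that mouse cells keep in many copies inside their mitochondria. They are all genes of the deposited table whose symbol starts with mt-, 37 of 40800 genes: 13 messenger RNAs, 2 ribosomal RNAs and 22 transfer RNAs. The samples are dorsal root ganglia, where the cell bodies of sensory neurons sit next to the spinal cord. The study's design gives 4 wild-type C57BL/6 mice and 4 mutants on that background with the Tmem184b gene trap on both alleles, all 6 months old. Such an inserted cassette takes over splicing so that the transcript stops short, and no treatment is named for either group. Total RNA was sequenced in each sample, and samples are named here by genotype and label number, wild types 1, 3, 4 and 8 and mutants 1 to 4. The labels do not say which sexes were used, whether each sample is 1 mouse, or whether poly(A) selection or removal of ribosomal RNA came before sequencing. P-values therefore measure the spread between these samples.

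Mitochondrial DNA is read from both strands into long precursors that cover nearly the whole circle. Transfer RNAs lie between most of the messenger and ribosomal RNAs, and cutting them out releases the rest. The messenger RNAs encode core subunits of the respiratory chain and of ATP synthase, the ribosomal RNAs build the mitochondrial ribosome, and the transfer RNAs serve translation inside the organelle. Sensory neurons, with their long axons, are rich in mitochondria. In whole ganglia, fewer cells of a type and less RNA per cell cannot be told apart.

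Libraries held 6183618 to 7983821 reads. Tmem184b itself lay at 7.36 to 7.51 log2 CPM in wild types and 2.47 to 3.10 in mutants, as the labels state. Summed CPM (reads scaled to a common library total) of 11 neuronal markers was 16587 to 18620.4 in wild types and 17160.1 to 18396 in mutants. For 5 satellite glia markers it was 1792 to 2191 and 1974 to 2778, and for 6 Schwann cell markers 2235 to 2937 and 2598 to 3106, so the markers of the labelled tissue were present in all 8 samples. Single markers differed within these sums. Scn10a, a sodium channel of pain-sensing neurons, was lower in the mutant, at -0.46 log2 (limma adjusted p = 0.00956), without overlap. Glul, of satellite glia, was higher by 0.49 (limma adjusted p = 0.0101) and Ncmap, of myelinating Schwann cells, by 0.69 (limma adjusted p = 0.00157). Each was the only marker called in its list, of 11, 5 and 6 tested. Nefh of the neuronal list had a higher mean CPM in mutants and Pmp22 of the Schwann list a lower one, neither called. The part of these markers in the mitochondrial values was not tested.

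Reads were spread very unevenly over the 37 genes. No read was assigned to 12 of them in any library, and 18 had at most 3 reads in every library. The messenger RNAs split into 7 with at least 3737 reads in every library and 6 with at most 2: mt-Co2 and mt-Co3 of cytochrome c oxidase, mt-Atp6 and mt-Atp8 of ATP synthase, and mt-Nd3 and mt-Nd4l of complex I. Those 6 lie side by side with 5 transfer RNA genes between mt-Co1 and mt-Nd4, and these 11 neighbours together received 7 reads in all 8 libraries. The genes on either side, mt-Co1 and mt-Nd4, received 20204 to 37725 and 6867 to 15281 reads per library.

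**Figure D1:**
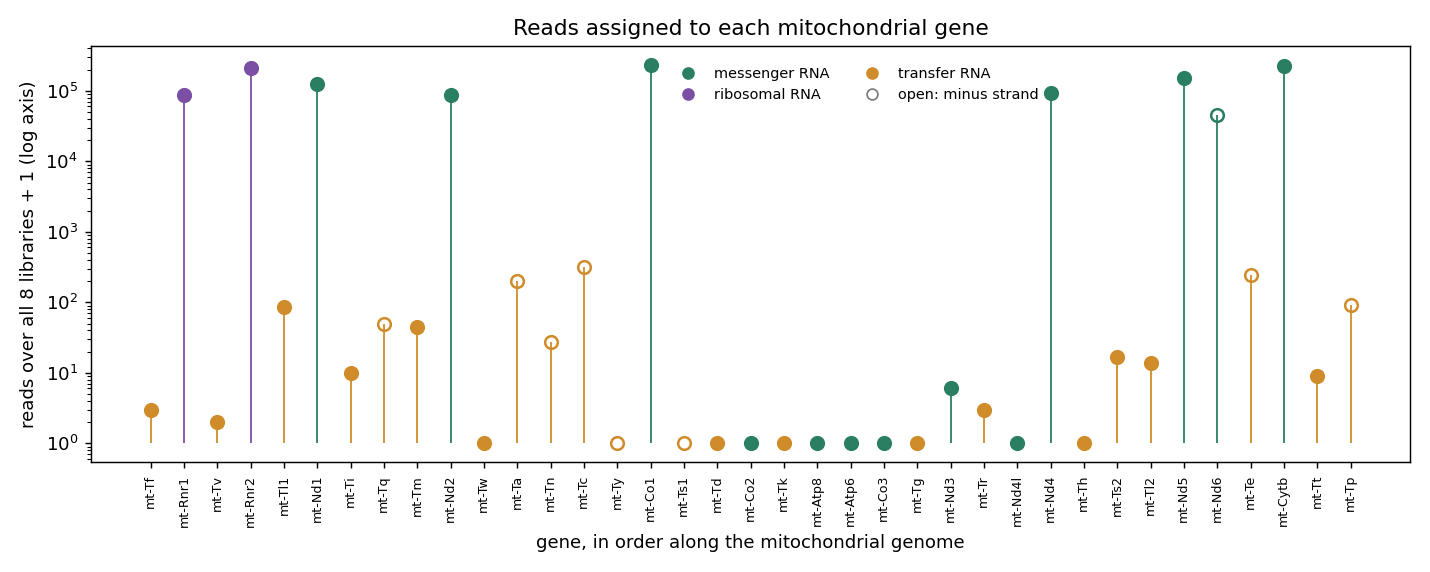
Reads over all 8 libraries plus 1 (log axis) for each of the 37 mitochondrial genes, in order along the genome, coloured by RNA class, with open points for genes on the minus strand. The 11 genes between mt-Co1 and mt-Nd4 hold 7 reads in all, while mt-Co1 and mt-Nd4 beside them hold 233115 and 91514.

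Annotated nuclear copies of mitochondrial DNA match messages of this silent stretch, but none was found for mt-Atp8. The search asked for at least 100 bases, more than the transfer RNA genes hold, so it could not show copies of those. In GENCODE M21 (GRCm38), the pseudogene Gm28661 (chromosome 1, 24614885 to 24615565, minus strand) is 100% identical to mt-Co2 over 681 of its 684 bases. Gm10925 is 100% identical to mt-Atp6 over 678 bases, Gm28437 to mt-Co3 over 783, Gm10222 to mt-Nd4l over 294, and Gm28438 is 99.7% identical to mt-Nd3 over 345. None of the 7 copies on chromosome 1 had more than 5 reads in any library. A further pair of copies there covers parts of measured genes, Gm29216 over 483 bases of mt-Co1 and Gm28439 over 876 bases of mt-Nd4. Of 3 copies on chromosome 2, which differ more, Gm13340, 97.6% identical to mt-Co1, had 47 to 96 reads per library, and Gm13341, 95.9% identical to mt-Co2, had 10 to 46. The other one, Gm13339, 96.7% identical to part of mt-Nd2, had 0 to 6. On chromosome 13, Gm4076, 95.2% identical to mt-Nd5 over 954 of 1824 bases, had 2 to 12 reads. How reads that match several places were counted is not given in the sources used here, and its part in the zeros was not tested. The 6 silent messenger RNAs are therefore listed at 0 or near it, with no statement about their level.

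The following 60 bases of mt-Co2 are shown with both copies because they show how alike the sequences are that a read would have to tell apart. They are the window of that length with the most differences from the chromosome 2 copy, positions 445 to 504 of the gene (chromosome M, 7457 to 7516, plus strand), and capitals mark the 6 positions at which the chromosome 2 copy differs, while the chromosome 1 copy differs at 0.
mt-Co2: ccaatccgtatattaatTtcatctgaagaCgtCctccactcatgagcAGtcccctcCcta
Gm28661: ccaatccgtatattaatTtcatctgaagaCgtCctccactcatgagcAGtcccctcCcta
Gm13341: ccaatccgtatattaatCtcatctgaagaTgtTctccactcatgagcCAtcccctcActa

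Mutants had more mitochondrial messenger RNA reads than 3 of the 4 wild types. All 7 measured messenger RNAs had higher means in the mutant, by 0.33 to 0.49 on the log2 scale, with a median of 0.39 against 0.07 over all 15030 tested genes. Of these, mt-Co1, mt-Cytb and mt-Nd4 passed the threshold of an adjusted p under 0.05 (limma, Benjamini-Hochberg over all tested genes). Of the 37 members 16 were tested and 5 of those were called, all higher. Of all tested genes 5.46% were called in either direction and 2.81% higher. Wild type 8 lay at or above the lowest mutant for every one of the 7 messages, so in none of them were the groups apart.

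For mt-Co1 (ENSMUSG00000064351; chromosome M, 5328 to 6872, plus strand), the largest subunit of cytochrome c oxidase, levels were 3208, 3376, 3572 and 4501 CPM in wild types 1, 3, 4 and 8. In mutants 1 to 4 they were 4657, 4326, 4705 and 5395 CPM. Wild type 8 was above mutant 2, and the other wild types were below all mutants. The means were 3664 ± 577 and 4771 ± 449 CPM (SD, n = 4 each), and the log2 difference was 0.39 (SE 0.0974; limma adjusted p = 0.0322).

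The message for cytochrome b, mt-Cytb (ENSMUSG00000064370; chromosome M, 14145 to 15288, plus strand), encodes the catalytic core of complex III. Wild types 1, 3, 4 and 8 had 2742, 3047, 3294 and 4633 CPM, against 4499.7, 4302, 4681 and 5418 CPM in mutants 1 to 4. Again wild type 8 lay among the mutants and the other 3 wild types below them. The log2 difference was 0.49 (SE 0.127; limma adjusted p = 0.0379).

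Complex I receives 7 of its subunits from the mitochondrial genome. Of these, mt-Nd4 (ENSMUSG00000064363; chromosome M, 10167 to 11544, plus strand) stood at 1090.3, 1240.1, 1302 and 1929.8 CPM in wild types 1, 3, 4 and 8, against 1823, 1729, 1929 and 2181 CPM in mutants 1 to 4. Wild type 8 exceeded 3 of the 4 mutants. The log2 difference was 0.49 (SE 0.132; limma adjusted p = 0.0433).

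The other 4 measured messages, all for complex I subunits, did not pass the threshold. For mt-Nd1 (chromosome M, 2751 to 3707), wild types ranged from 1648 to 2618 CPM and mutants from 2380.1 to 2850.1, a difference of 0.35 (95% interval 0.12 to 0.59; limma adjusted p = 0.0791). For mt-Nd2 (3914 to 4951) the difference was 0.42 (0.12 to 0.71; limma adjusted p = 0.0905), and for mt-Nd5 (11742 to 13565) 0.34 (0.09 to 0.59; limma adjusted p = 0.112). The message mt-Nd6 (13552 to 14070) is the one messenger RNA on the minus strand, with wild types at 593 to 994 CPM and mutants at 863 to 994. Its difference was 0.33 (0.07 to 0.59; limma adjusted p = 0.125). It overlaps the end of mt-Nd5, and whether counting used the strand is unstated, so reads from the opposite strand cannot be told apart from its own.

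**Figure D2:**
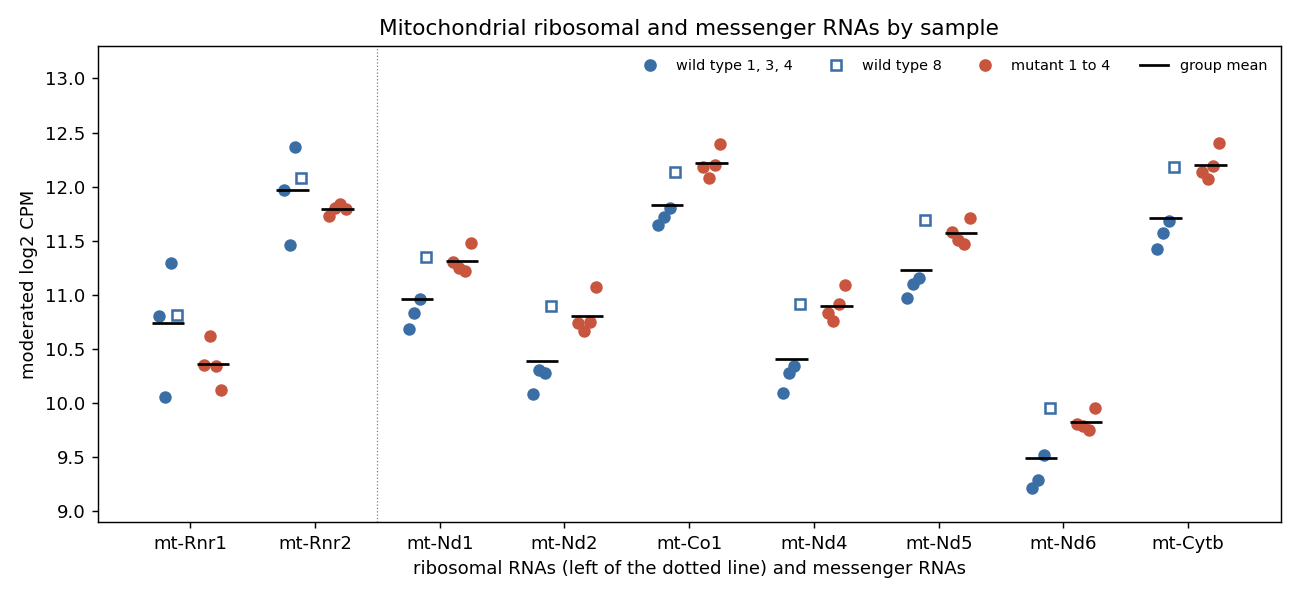
Moderated log2 CPM of the 2 ribosomal and 7 measured messenger RNAs in each sample, with bars at group means. Wild type 8 (open square) sits at the level of the mutants for each messenger RNA, and wild types 1, 3 and 4 sit below all 4 mutants there, while the ribosomal RNAs overlap.

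These calls rested on a wild-type group with 1 sample apart from the rest, and they lay close to the threshold. The deposited headers also carry an identifier number per sample, which runs in separate blocks for mutants and wild types. That of wild type 8 lies apart from the other wild types. What the number stands for is not stated, and anything it marks cannot be told apart from genotype. Without wild type 8, a sample singled out after its values were seen, all 7 messenger RNAs were called higher and none overlapped between groups, where 2.08% of all tested genes were called higher and 11.6% were higher without overlap. The differences were then 0.49 for mt-Nd1, mt-Co1, mt-Nd5 and mt-Nd6, 0.59 for mt-Nd2, 0.66 for mt-Nd4 and 0.64 for mt-Cytb. With any other wild type or mutant left out in place of it, 0 or 1 messenger RNA was called. That 1 was mt-Co1, without mutant 2 or mutant 3. In those fits 1.16% (without wild type 1) to 3.81% (without wild type 4) of all tested genes were called higher. The share was 1.77% without mutant 2 and 3.38% without mutant 3, against 2.81% with all samples. The count was 0 of 7 without mutant 4, and 0 of 7 when samples were centred on their medians, when the trend with GC percent was removed or when the variance trend was left out. Higher calls over all tested genes fell too in these settings, from 423 to 206, 204, 257 and 67, in the same order. Lower calls went from 397 to 295, 706, 604 and 75. All 7 nevertheless kept a difference above 0 in each of the 18 alternatives, from 0.19 for mt-Nd6 to 0.71 for mt-Nd4.

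Mutant 4 had the highest level of all 8 samples for 6 of the 7 messages and the most transcript from skeletal muscle, a tissue rich in mitochondria. Summed CPM of 12 muscle markers, 11 of which exceeded 3 reads in some library, was 38.7 to 86.0 in wild types and 64.4 to 260.1 in mutants, with 260.1 in mutant 4. A large part of the lower sums was Pvalb, which sensory neurons also make, so these sums are not of muscle alone. Pvalb had 214 to 349 reads in wild types and 283 to 426 in mutants. Acta1, of muscle, had 5 to 84 reads in wild types and 18 to 310 in mutants, with 310 in mutant 4. Without mutant 4 the differences were 0.33 for mt-Co1, 0.43 for mt-Nd4 and 0.42 for mt-Cytb. Wild type 8, whose messages were as high as in mutants, had a muscle sum of 58.6 CPM, within the range of the other wild types. It had 29 reads of Acta1, also within their range. Among 7 adipocyte markers the sums were 2.90 to 5.76 and 6.29 to 8.66 CPM, higher in mutants without overlap. Of these markers 2 were tested and 0 called. Cidea had 10 to 20 reads in wild types and 15 to 42 in mutants, and Fabp4 had 5 to 11 and 1 to 18. Cidec had 0 to 4 and 0 to 14 reads. Ucp1, which defines brown fat, had 0 reads in 6 libraries and at most 4 in the others. Sums for the other cell types overlapped between groups: immune cells 37.5 to 59.4 and 50.8 to 83.9 CPM, red blood cells 39.9 to 108 and 65.0 to 124, fibroblasts 581 to 1187 and 760.0 to 1133, and endothelial cells 53.5 to 75.9 and 55.7 to 87.2. Within them Cd163 of macrophages and Dcn of fibroblasts were called higher, at 0.80 and 0.60 log2 (limma adjusted p = 0.0208 and 0.00820). Each was the only call among 5 tested markers of its list. Col1a1 and Col3a1 of fibroblasts had slightly lower mean CPM in mutants. The part of any of these cell types in the mitochondrial values was not tested.

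The makeup of the messenger RNA pool was nearly the same in both genotypes. Of the reads on the 7 messages, mt-Co1 took 24.5% ± 1.38 in wild types and 24.2% ± 0.347 in mutants (SD, n = 4), mt-Nd1 13.4% and 12.9%, mt-Nd2 9.08% and 9.13%, and mt-Nd5 16.2% and 15.5%. The share of mt-Cytb did not overlap between groups, with wild types at 22.2% to 23.3% and mutants at 23.4% to 24.5%. Wild type 8, at 23.3%, was the highest wild type and the closest to the mutants. For mt-Nd4 the shares were 8.81% to 9.70% and 9.50% to 10.1%.

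Per kilobase of the whole gene, mt-Cytb had the highest mean level in wild type, at 2997 ± 729 CPM per kilobase (SD, n = 4), followed by mt-Rnr2 at 2600.3, mt-Co1 at 2372, mt-Nd1 at 2111 and mt-Rnr1 at 1877. Lower levels were found for mt-Nd6 at 1419.8, mt-Nd5 at 1342, mt-Nd2 at 1327 and mt-Nd4 at 1009. The wild-type ranges of each neighbouring pair in that order overlapped. Within libraries some steps held throughout: mt-Co1 exceeded mt-Nd1, mt-Nd6 exceeded mt-Nd5 and mt-Nd2 exceeded mt-Nd4 in 8 of 8. The steps from mt-Rnr2 to mt-Co1 and from mt-Rnr1 to mt-Nd6 held in only 2 of 8, so the order of means is not that of most libraries there. The order also depends on the length used. Of mt-Nd4, 502 of 1378 bases lie outside the chromosome 1 copy, and of mt-Co1 1062 of 1545. Dividing all of a gene's reads by those bases alone, as if none lay in the copied part, gave 2770.2 CPM per kilobase for mt-Nd4 and 3450.1 for mt-Co1, which would then stand above mt-Cytb. The place of reads within a gene was not analysed here.

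Both ribosomal RNAs had lower means in the mutant, and neither difference passed the threshold. Their reads can also depend on any poly(A) selection or removal of ribosomal RNA in each library, which is unstated and was not tested. The small-subunit RNA, mt-Rnr1 (ENSMUSG00000064337; chromosome M, 70 to 1024), measured 1786, 1064, 2519 and 1801 CPM in wild types 1, 3, 4 and 8, against 1306, 1576, 1299.7 and 1115 CPM in mutants 1 to 4. Wild type 3 was below every mutant and the other wild types above them. The log2 difference was -0.38 (95% interval -0.77 to 0.01; limma adjusted p = 0.246). The large-subunit RNA, mt-Rnr2 (ENSMUSG00000064339; chromosome M, 1094 to 2675), measured 3998, 2823, 5293 and 4341 CPM in the same wild types, against 3396, 3579.8, 3674 and 3559.7 CPM in mutants 1 to 4. Its difference was -0.18 (95% interval -0.46 to 0.11; limma adjusted p = 0.483). Here too wild type 3 lay below all mutants. Without wild type 3 both were called lower, mt-Rnr1 at -0.61 (limma adjusted p = 0.0187) and mt-Rnr2 at -0.35 (limma adjusted p = 0.0458). In that fit 1.79% of all tested genes were called lower, against 2.64% with all samples. Without wild type 4 the differences were -0.20 and -0.04.

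Wild types varied more than mutants in these RNAs, from 1064 to 2519 CPM against 1115 to 1576 CPM for mt-Rnr1. The ratio of mt-Rnr1 to mt-Rnr2 was 0.447, 0.377, 0.476 and 0.415 in wild types 1, 3, 4 and 8, against 0.385, 0.440, 0.354 and 0.313 in mutants 1 to 4. Those groups overlapped (log2 difference -0.21; exact two-sided permutation p = 0.171, adjusted over 5 ratios 0.214).

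Ratios within a library do not depend on how libraries are scaled. Only the next ratio sets a messenger against a ribosomal RNA directly. It can depend on any poly(A) selection or removal of ribosomal RNA, which is unstated and was not tested. The ratio of mt-Rnr2 to mt-Nd1, its neighbour on the same precursor, was 2.43, 1.55, 2.65 and 1.66 in wild types 1, 3, 4 and 8, against 1.34, 1.47, 1.54 and 1.25 in mutants 1 to 4. All mutants lay below all wild types, with wild type 3 and mutant 3 nearly level. The log2 difference was -0.53, from 1.01 ± 0.39 to 0.48 ± 0.14 (n = 4 each, with SD). In the two-sided test the exact permutation p was 0.0286, the smallest that 4 against 4 allow, and 0.143 adjusted over 5 ratios. After adjustment over the family, 4 against 4 samples could pass the threshold only if several ratios separated completely. Without wild type 8 the difference was -0.62.

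The other 3 ratios did not separate the groups. The ratio of mt-Nd6, on the minus strand, to its plus-strand neighbour mt-Nd5 was 0.285 to 0.322 in wild types and 0.292 to 0.303 in mutants (log2 difference -0.01; exact permutation p = 0.886, adjusted 0.886). For mt-Nd4 to mt-Co1 the log2 difference was 0.10 (exact permutation p = 0.171, adjusted 0.214) and for mt-Cytb to mt-Co1 it was 0.10 (exact permutation p = 0.143, adjusted 0.214). Without wild type 8, the highest wild type in both, these last differences were 0.17 and 0.15, given with no test. The ratio of mt-Atp6 to mt-Co3 could not be formed, as both were at 0.

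By class, messenger RNAs took 1.24%, 1.36%, 1.44% and 1.99% of library reads in wild types 1, 3, 4 and 8 and 1.92%, 1.82%, 1.91% and 2.23% in mutants 1 to 4. Wild types averaged 1.51% ± 0.333 and mutants 1.97% ± 0.180 (SD, n = 4), 1.31 times as high, and 1.47 times as high without wild type 8. Ribosomal RNAs took 0.578%, 0.389%, 0.781% and 0.614% in those wild types, against 0.470%, 0.516%, 0.497% and 0.467% in those mutants. As a share of mitochondrial reads, ribosomal RNAs were 22.2% to 35.1% in wild types and 17.3% to 22.0% in mutants, with no overlap but a gap far smaller than the wild-type range. Wild types 3 and 8, at 22.2% and 23.6%, were the nearest to the mutants. Transfer RNAs took 0.00143% to 0.00168% of library reads in wild types and 0.00205% to 0.00309% in mutants, 1.59 times as high by the means and without overlap. All mitochondrial transcripts together made up 2.10% ± 0.398 of reads in wild types and 2.46% ± 0.164 in mutants (SD, n = 4), with overlapping groups.

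**Figure D3:**
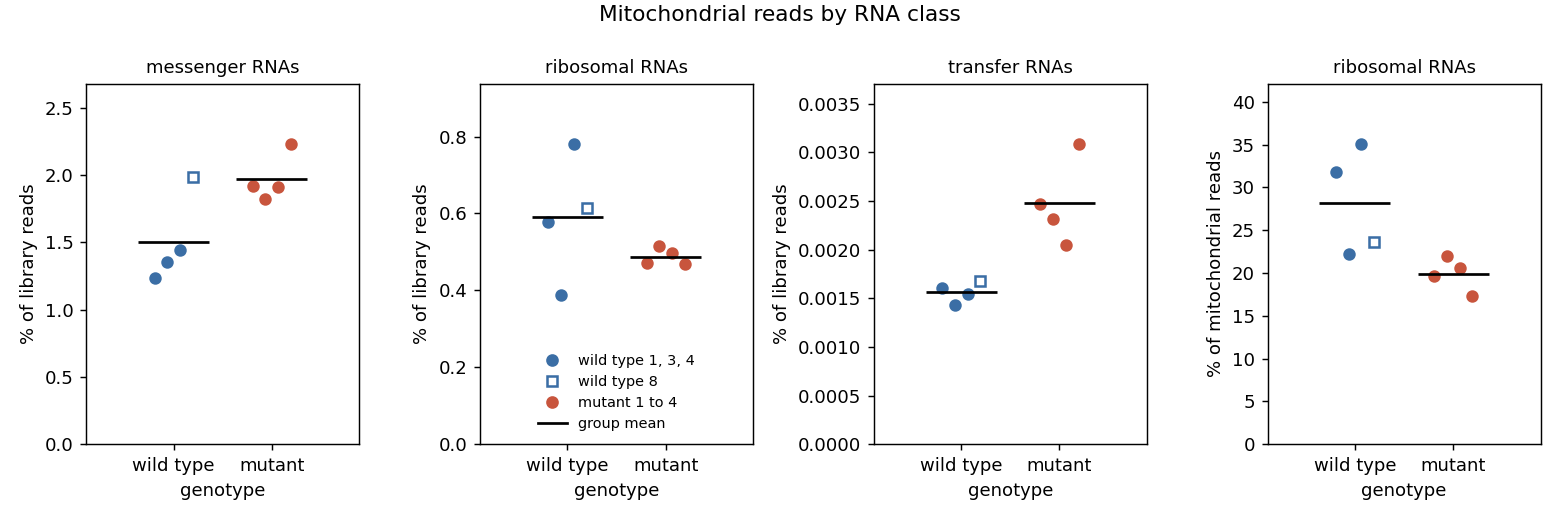
Share of library reads on mitochondrial messenger, ribosomal and transfer RNAs, and ribosomal RNAs as a share of mitochondrial reads, in each sample with group means. Messenger RNA shares are 1.82% to 2.23% in mutants and 1.24% to 1.99% in wild types, with wild type 8 alone among the mutants.

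The transfer RNAs are far shorter than the other members and gave few reads, 101 to 133 per wild-type library and 133 to 216 per mutant library over all 22. Of these genes 7 had no read at all and 7 passed the filter for testing, which asks for more than 0 log2 CPM in 4 of 8 samples and can be met by the higher group alone. Of these, mt-Tc and mt-Tp on the minus strand passed the threshold and were higher in the mutant, without overlap of the groups in CPM. They are the only tested members whose groups do not overlap in CPM, where 7.50% of all tested genes were higher and 4.92% lower without overlap.

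The 6 sequences below are the tested transfer RNAs in which the anticodon could be placed, and are shown because the counts rest on genes this short. Capitals mark the anticodon, found by a search for its letters after a T in the middle of the gene. The transfer RNA for methionine, mt-Tm, was also tested and is not shown.
mt-Tl1: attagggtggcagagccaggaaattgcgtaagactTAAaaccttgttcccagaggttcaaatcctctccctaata
mt-Tq: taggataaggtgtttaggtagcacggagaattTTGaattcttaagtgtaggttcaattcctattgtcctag
mt-Ta: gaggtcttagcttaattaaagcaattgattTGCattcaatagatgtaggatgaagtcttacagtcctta
mt-Tc: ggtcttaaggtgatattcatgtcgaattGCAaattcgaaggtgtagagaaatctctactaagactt
mt-Te: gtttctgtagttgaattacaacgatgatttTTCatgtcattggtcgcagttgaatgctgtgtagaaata
mt-Tp: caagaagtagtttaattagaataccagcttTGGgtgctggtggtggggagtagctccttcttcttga

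The cysteine transfer RNA, mt-Tc (ENSMUSG00000064349; chromosome M, 5192 to 5257, minus strand), had 28, 35, 29 and 28 reads in wild types 1, 3, 4 and 8 and 52, 42, 34 and 71 reads in mutants 1 to 4. In reads mutant 3 lay just below wild type 3, and scaled to the library the groups did not overlap, at 3.54 to 4.45 and 5.24 to 10.2 CPM. The log2 difference was 0.77 (SE 0.195; limma adjusted p = 0.0336). Mutant 4 was the highest and mutant 3 the nearest to the wild types.

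The proline transfer RNA, mt-Tp (ENSMUSG00000064372; chromosome M, 15356 to 15422, minus strand), had 6, 9, 5 and 9 reads in those wild types, against 16, 15, 10 and 22 in those mutants. Its log2 difference was 1.04 on the moderated scale (SE 0.266; limma adjusted p = 0.0356). Wild type 8, at the mutants' level in the messages, had the lowest CPM of all 8 samples in mt-Tc and 1.14 CPM in mt-Tp, next to 1.13 in wild type 3. Both calls were lost in most alternatives, mt-Tc being called in 7 and mt-Tp in 6 of 18, with highest adjusted p of 0.118 and 0.119 (limma). Their differences stayed between 0.62 and 0.92 and between 0.75 and 1.21.

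The leucine transfer RNA mt-Tl1, between mt-Rnr2 and mt-Nd1, had 2 to 14 reads in wild types and 11 to 19 in mutants, with wild type 8 at 14 (difference 0.99; limma adjusted p = 0.108). For glutamate, mt-Te had 20, 22, 23 and 43 reads in wild types 3, 1, 4 and 8 and 28 to 40 in mutants (0.47; limma adjusted p = 0.226), and for alanine, mt-Ta had 18 to 24 and 24 to 37 reads (0.50; limma adjusted p = 0.172). The glutamine and methionine genes mt-Tq and mt-Tm had 3 to 8 reads in every library, at -0.26 and 0.16 (limma adjusted p = 0.678 and 0.815). In these last 2 the counts are too low to show a difference of that size.

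**Figure D4:**
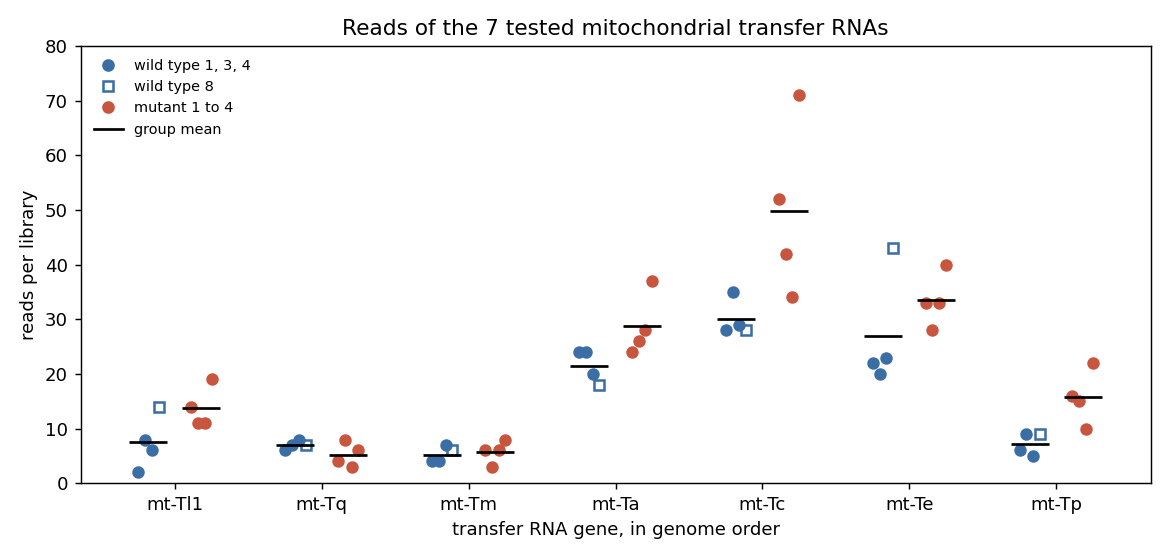
Reads per library for the 7 tested mitochondrial transfer RNAs, with group means. In mt-Tp the mutants (10 to 22 reads) lie above all wild types (5 to 9), while in mt-Tc mutant 3, at 34 reads, lies just below wild type 3, at 35, and these groups separate only once scaled to the library.

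Transfer RNA reads were concentrated on the 8 genes of the minus strand, which held 79.7% to 87.7% of them in wild types and 82.7% to 85.3% in mutants, against 14 genes on the plus strand. On those 8 genes wild-type libraries had 85 to 106 reads and mutant libraries 110 to 179, and on the 14 others 13 to 27 and 21 to 37. With strand use unstated, reads of long precursors that cross these genes in the other sense cannot be told apart from the transfer RNAs themselves.

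**Figure D5:**
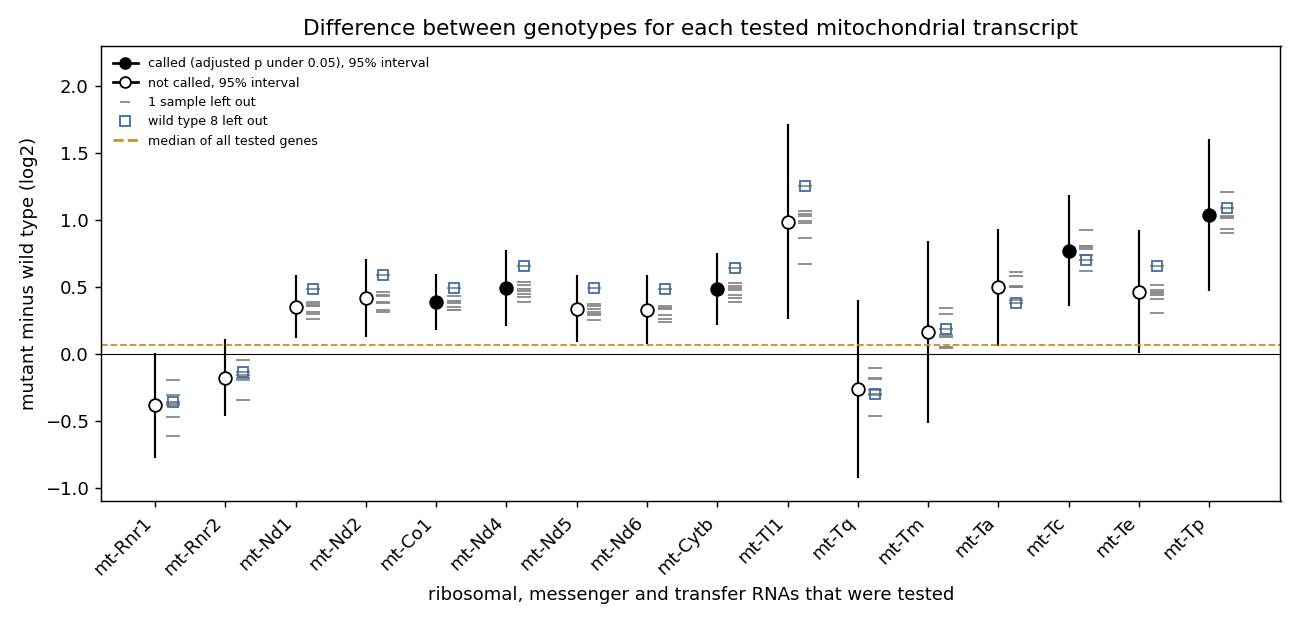
Mutant minus wild type on the log2 scale for the 16 tested members, with 95% intervals, filled where called; grey ticks leave out 1 sample each, blue squares leave out wild type 8, and the dashed line is the median of all tested genes at 0.07. The 7 messenger RNAs lie between 0.33 and 0.49 and rise to between 0.49 and 0.66 without wild type 8, and the ribosomal RNAs lie below 0.

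Nuclear genes that act on the mitochondrial genome or its products are given by list. In lists of 20 or 21 genes, 0 or 1 call cannot be told apart from the 5.46% called over all tested genes. Among 20 tested genes for its transcription and upkeep, 1 was called higher and 0 lower, where 2.81% of all tested genes were called higher and 2.64% lower. The list's median log2 difference was 0.18, against 0.07 over all tested genes. The called gene was Esrra, a nuclear receptor that drives genes of energy metabolism, at 0.31 (SE 0.0745; limma adjusted p = 0.0256). Tfam, which packs mitochondrial DNA and starts its transcription, differed by -0.07 (limma adjusted p = 0.771), and Polrmt, the mitochondrial RNA polymerase, by 0.24 (limma adjusted p = 0.132). Of 21 genes for mitochondrial RNA processing and stability, 0 were called, with a median of 0.14, and Lrpprc, which stabilises the messages, differed by -0.04 (limma adjusted p = 0.711). None of 20 mitochondrial aminoacyl-tRNA synthetases (median 0.06) and none of 73 mitochondrial ribosomal proteins (median 0.10) was called.

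Nuclear genes of oxidative phosphorylation, listed by their names, had a median log2 difference of 0.17 over 78 tested genes, against 0.07 over all genes. They include Sdha, Sdhb, Sdhc and Sdhd of complex II, which takes no subunit from the mitochondrial genome. Atp5s and Atp5sl were also taken in by name. Of these 78, 2 were called higher and 1 lower, shares near those over all genes. The higher genes were Ndufa4, at 0.36 (limma adjusted p = 0.0209), and Ndufb2, at 0.52 (limma adjusted p = 0.0185). The lower gene was Ndufs5 of complex I, with 23 to 37 reads in wild types and 1 to 4 in mutants (-2.91; limma adjusted p = 6.01e-05). Its annotated copy BC002163, 99.4% identical over 319 bases, had 24 to 54 reads in wild types and 49 to 85 in mutants, so the count of Ndufs5 is uncertain.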

How the data were processed

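The values are moderated log2 CPM in 1 table deposited by the authors, with the GC percent of each gene as a deposited annotation value. The submitters' processing notes name Salmon 0.11.1, DESeq2 and mm9, with no role. The table had 41422 lines and 40800 distinct identifiers, each used once. After the shared floor of -1.79 was subtracted on the linear scale, 100% of values were whole multiples of 1 read's worth within 0.01 reads, which gave back the reads. One read was worth 0.125 to 0.162 CPM and 3 reads, the floor of detection, 0.376 to 0.485 CPM, which covers counting error only.

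Mutant and wild type were compared with limma 3.58.1 (R 4.3.3; eBayes, trend on mean level allowed in the variance; two-sided; no covariate) for 15030 genes above 0 log2 CPM in at least 4 of 8 samples, with Benjamini-Hochberg adjustment over all of them and a threshold of 0.05. The fit was tested on simulated reads with known changes. Ratios of 2 transcripts were compared by exact permutation over 70 assignments. Sums over members received no test. Members, lists and tests were chosen with earlier results of these data known. Every tested messenger and ribosomal RNA and every called member is named. So are called members of the nuclear lists plus Tfam, Polrmt and Lrpprc, and copies with a mean of at least 1 CPM. The single cell type markers, Ucp1 among them, the chromosome 1 copies, Gm13339, Gm4076 and BC002163 were added after their values were seen. Positions are those of the same identifiers in GENCODE M21 (GRCm38) and are not the authors' build. Copies were annotated transcripts at 95% identity or more over at least 100 bases (blastn 2.17.0). Python 3.11.15, numpy 2.4.6, pandas 2.3.3, scipy 1.17.1 and matplotlib 3.10.9 were used. Same-group samples correlated at 0.984 to 0.988 across genes, and their reads gave 2.61 to 6.63 for chi-square over its degrees of freedom, above sampling noise.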

Additional observations from a re-analysis of the deposited data

Results flagged for a closer look

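One measurement stood out within its group of 4 samples. Wild type 8 had 1.94 log2 CPM of mt-Tc, and the remaining wild types 2.20 to 2.24, from 28 reads against 28 to 35. The gap was 0.85 of the group's range. Of 54 such groups examined, 1 was singled out, fewer than the 2.7 that chance would give at 1 in 20.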

How the results depend on the processing

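All 16 tested members kept their direction in all 18 alternatives, and so did the class medians, but few calls held. Messenger RNAs called higher numbered 3 as reported, 0 under median centring, without the variance trend and with the GC trend removed, and 1 with Xist as a covariate. Transfer RNAs called higher numbered 2 as reported, 1 without the filter and with the GC trend removed, and 0 without the variance trend and with Xist as a covariate. Over all tested genes, 423 higher and 397 lower became 204 and 706 under median centring, 257 and 604 with the GC trend removed, 382 and 360 with Xist, and 67 and 75 once the variance trend was dropped. Calls without the filter were 402 and 380 of 26092 genes. The causes were not tested. Both counts were unchanged with 1 CPM added, with mitochondrial reads taken out of the library total and with voom on the recovered reads. Leaving out 1 sample gave 0 to 7 messenger RNAs, 0 to 2 transfer RNAs and 0 to 2 ribosomal RNAs called. Of all tested genes, 1.16% to 3.81% were then called higher and 1.53% to 2.84% lower. Log2 differences of ratios ranged from -0.032 to 0.027 for mt-Nd6 to mt-Nd5, which changed direction without wild type 4 (0.027) and without mutant 1 (0.0046), from 0.057 to 0.17 for mt-Nd4 to mt-Co1, from 0.060 to 0.15 for mt-Cytb to mt-Co1 and from -0.66 to -0.40 for mt-Rnr2 to mt-Nd1.

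Samples share the numbers 1, 3 and 4 across genotypes, and the labels do not say whether this pairs them. Across genes, deviations from the group mean correlated at 0.081, 0.041 and 0.058 between samples of the same number, which cannot decide it. A replicate block on those 6 samples called 7 messenger and 0 transfer RNAs, and the same 6 samples without the block, which also lack wild type 8, gave 7 and 0. At 5 to 22 reads per library for mt-Tp, and fewer for the untested transfer RNAs, depth limits what can be seen.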
